A study of Mus musculus with 6 samples.

Results

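Macrophages are the phagocytes of the tissues, and the liver's own resident population, the Kupffer cells, sits in the sinusoids, where it clears particles, immune complexes, lipoproteins and dying cells from portal blood. Their survival depends on the receptor CSF1R, their identity on transcription factors such as PU.1, and their uptake machinery on scavenger, complement and Fc receptors that deliver cargo to acidic, protease-rich lysosomes. Monocytes that enter an injured liver carry a partly different set, with the integrin CD11b and the chemokine receptor CCR2 among its usual markers.

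The genes described here are 38 that mark macrophages, Kupffer cells, leukocytes in general or recruited monocytes. They were matched by symbol to the array's annotation, where Adgre1, formerly Emr1, appears under its current name. Of the 38, 37 were measured among 12393 genes tested. Timd4, for a phosphatidylserine receptor of Kupffer cells, had no probe set carrying its symbol alone and is not analysed here. Each gene is represented by its probe set with the highest mean over the arrays. The genes were sorted by known expression into 7 resident Kupffer cell genes, 21 pan-macrophage genes, 5 pan-leukocyte genes and 5 monocyte-linked genes. The last class (Itgam, Itgax, Cd14, Trem2 and Clec7a) is not restricted to monocytes, and comparisons between classes depend on this sorting.

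Total liver RNA of 6 mice, each 1 month old, was hybridised to 1 array per mouse. The TFEB-injected group (3 mice) had been given an adenovirus meant to raise TFEB in the liver; this transcription factor activates lysosomal genes. The not-injected group (3 mice) received no vector. The labels call both groups Ppara KO on background strain C57, so neither carries the wild-type gene for PPAR-alpha, a nuclear receptor of fatty acid oxidation. No group received an empty vector, so effects of the adenovirus and of TFEB cannot be told apart. The sources used here do not state the vector's promoter, the species of the TFEB it carries, the time after injection or the sex of the mice. Levels are log2 values after RMA (background correction, quantile normalisation and probe summary), so a difference of 1 is a doubling.

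The RNA was that of whole liver, so more macrophages, more RNA per macrophage and transcripts made by other liver cells cannot be told apart. The tissue label was borne out by Alb, for albumin, which stood at 14.95, 14.95 and 14.94 in TFEB-injected replicates 1, 2 and 3, against 15.02, 15.01 and 15.03 in not-injected replicates 1, 2 and 3. The Tfeb probe set gave a log2 change of 0.04 ± 0.07 (SE; adjusted p = 0.777) and that of Ppara 0.13 ± 0.05 (adjusted p = 0.149). Since the part of Ppara that was deleted and the species of the vector's TFEB are not given, neither checks the labels. Arrays correlated at 0.995 to 0.998 within the injected group, 0.998 to 0.999 within the not-injected group and 0.989 to 0.993 between groups.

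Macrophage and Kupffer cell genes were higher in the injected livers. Of the 37 measured genes, 24 rose and 0 fell (limma, adjusted p under 0.05 over all genes), whereas 9.99% of all genes rose and 7.92% fell. The median log2 change of the 37 was 0.41, or 1.33-fold, against -0.01 for all genes tested. At an unadjusted p under 0.05, 29 were higher and 0 lower, beside 1947 higher and 1947 lower among the 12393 genes tested. In 28 of the 37, all 3 injected arrays lay above all 3 not-injected arrays, which held for 18.2% of all genes; the opposite order held for 0 members and 18.9% of all genes. The linear levels of the 37 genes summed to between 24429 and 28273 on the injected arrays, against 18577 to 19027 on the not-injected arrays. Bright probe sets weigh most in such sums. Among them is the lead one of Lyz1, at log2 levels of 12.06, 11.79 and 11.32 against 10.93, 11.02 and 10.90, which is uncertain as to gene. By class, 4 of 6 measured resident Kupffer cell genes, 14 of 21 pan-macrophage genes, 4 of 5 pan-leukocyte genes and 2 of 5 monocyte-linked genes rose. The class medians were 0.41, 0.42, 0.42 and 0.03 in that order.

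**Figure D1:**
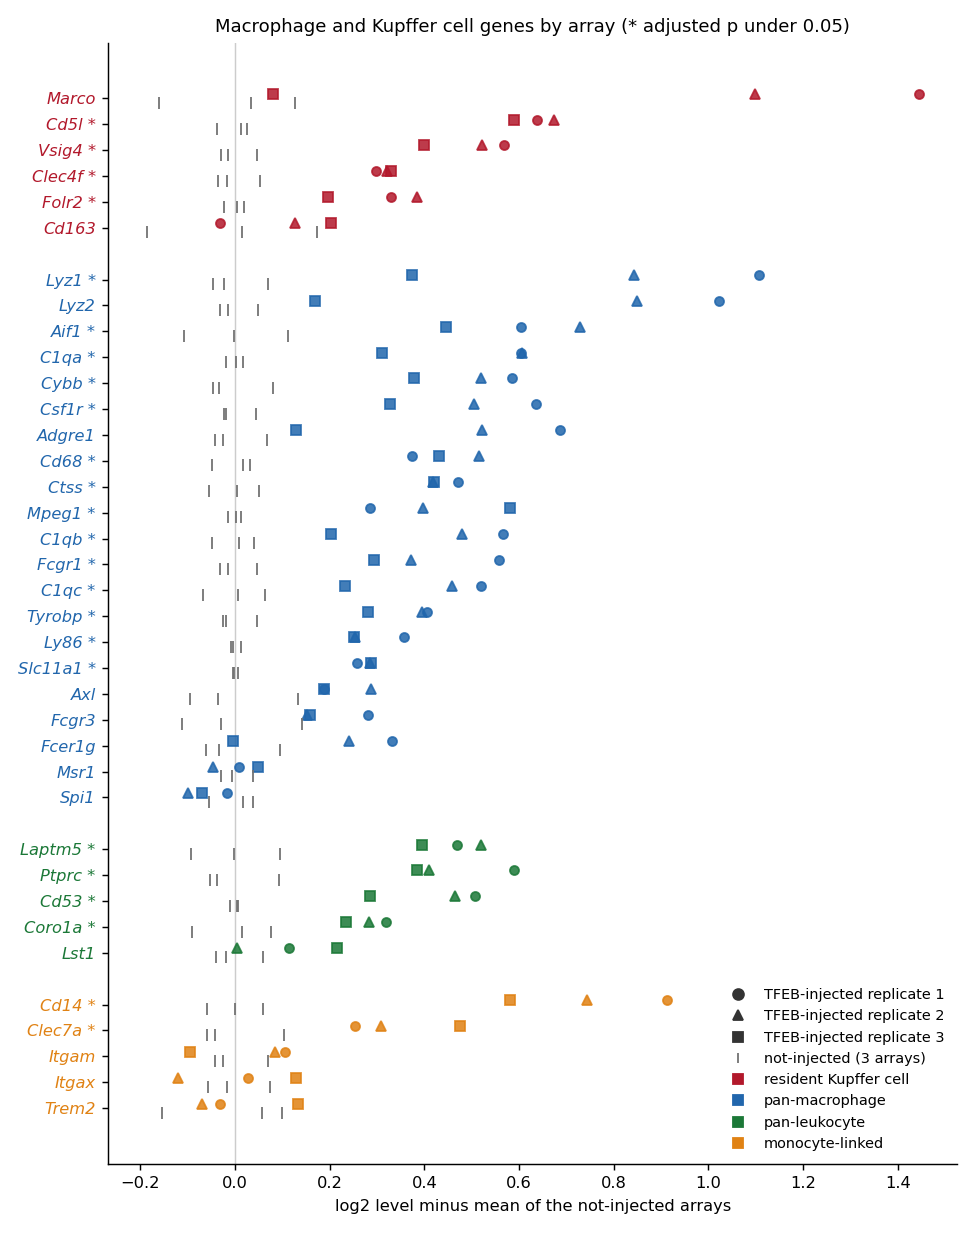
Each row is a gene, with log2 level minus the mean of the not-injected arrays on the x axis; coloured symbols are the 3 TFEB-injected arrays, grey ticks the 3 not-injected arrays, and a star marks an adjusted p under 0.05. Most symbols lie right of the ticks, with Marco, Lyz2 and Adgre1 widely spread. In Msr1, Spi1, Itgam, Itgax and Trem2 the symbols and ticks overlap in range.

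The promoters of 4 members are shown because these had the smallest p among those that rose and had a promoter in the RefSeq table (build GRCm38.p6). Each runs from 250 bases before to 50 bases after the gene's start, 5′ to 3′ on the gene's strand. Capitals mark GAGGAA, the core of sites bound by the macrophage factor PU.1, or its reverse complement TTCCTC. Cd5l lies at chr3:87357631-87357930 (plus strand), Ctss at chr3:95526536-95526835 (plus), Vsig4 at chrX:96293389-96293688 (minus) and Cd68 at chr11:69666121-69666420 (minus).
Cd5l: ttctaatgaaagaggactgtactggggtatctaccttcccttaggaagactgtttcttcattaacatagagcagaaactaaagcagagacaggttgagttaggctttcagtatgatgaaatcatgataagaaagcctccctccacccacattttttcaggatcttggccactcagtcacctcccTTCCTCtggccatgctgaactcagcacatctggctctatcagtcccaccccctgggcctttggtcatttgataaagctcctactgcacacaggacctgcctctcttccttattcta
Ctss: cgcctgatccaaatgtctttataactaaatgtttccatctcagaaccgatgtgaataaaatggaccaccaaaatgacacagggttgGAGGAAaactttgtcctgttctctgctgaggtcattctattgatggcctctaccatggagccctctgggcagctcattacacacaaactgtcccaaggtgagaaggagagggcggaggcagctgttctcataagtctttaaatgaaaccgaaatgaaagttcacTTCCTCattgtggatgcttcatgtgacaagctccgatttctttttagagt
Vsig4: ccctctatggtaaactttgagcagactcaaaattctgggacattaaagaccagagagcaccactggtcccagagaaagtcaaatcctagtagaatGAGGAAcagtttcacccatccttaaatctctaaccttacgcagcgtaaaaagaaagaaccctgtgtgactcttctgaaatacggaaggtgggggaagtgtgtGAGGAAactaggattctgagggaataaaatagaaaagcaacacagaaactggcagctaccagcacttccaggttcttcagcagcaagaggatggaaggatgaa
Cd68: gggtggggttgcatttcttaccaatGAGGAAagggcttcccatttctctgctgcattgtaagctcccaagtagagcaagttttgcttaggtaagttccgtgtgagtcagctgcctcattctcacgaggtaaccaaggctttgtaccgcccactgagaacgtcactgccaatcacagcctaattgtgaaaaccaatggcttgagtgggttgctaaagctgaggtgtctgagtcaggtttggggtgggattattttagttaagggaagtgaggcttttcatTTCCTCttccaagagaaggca

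RefSeq promoters were found for 29 of the 37 measured genes, 34 promoters in all, and both strands were searched for GAGGAA and for the E-box CACGTG. This E-box is the centre of TCACGTGA, a core of the CLEAR element through which TFEB acts on lysosomal genes. GAGGAA occurred in 21 of the 34 promoters (61.8%), from 19 genes, and in 28.3% of 32851 promoters of all genes. Among members that rose it was in 15 of 24 promoters (62.5%), much the same share as among all measured members. CACGTG, present in 7.15% of all promoters, was in 0 of the 34, and TCACGTGA, present in 0.974%, was likewise in 0. With shares this low, a count of 0 among 34 promoters says little. No promoter of a member held more than 1 kind of motif. These matches describe letters in windows of 300 bases and do not show binding or its absence.

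Of the 6 measured resident Kupffer cell genes, 4 rose (Cd5l, Vsig4, Clec4f and Folr2), while Marco and Cd163 did not pass. Cd5l, for a secreted protein that binds lipids and keeps macrophages alive, was at 11.55, 11.59 and 11.50 in TFEB-injected replicates 1, 2 and 3, against 10.93, 10.94 and 10.87 in not-injected replicates 1, 2 and 3. The gap between the groups was far wider than the range within either, at 1.55-fold (log2 change 0.63 ± 0.05 SE; adjusted p = 2.37e-04). Vsig4, the complement receptor CRIg that captures opsonised bacteria, gave 10.57, 10.52 and 10.40 against 9.99, 10.05 and 9.97 (0.50 ± 0.06; adjusted p = 0.00141). Its lowest injected array was again replicate 3, still above every not-injected one.

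Clec4f, a C-type lectin found on mouse Kupffer cells, was at 9.79, 9.82 and 9.83 in the injected livers, against 9.46, 9.55 and 9.48 in the not-injected livers. This made a 1.24-fold rise (0.32 ± 0.05; adjusted p = 0.00367) with nearly equal levels in the 3 injected mice. Folr2, for folate receptor beta, was at 8.55, 8.61 and 8.42, against 8.24, 8.23 and 8.20, a rise of 0.30 ± 0.06 (adjusted p = 0.0118). The Folr2 call was lost without TFEB-injected replicate 2 (adjusted p = 0.0519).

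Marco, a scavenger receptor for bacteria and particles, behaved unlike these. Its level was 7.56 and 7.22 in TFEB-injected replicates 1 and 2 but 6.20 in replicate 3, against 6.24, 6.15 and 5.96 in the not-injected livers. Only 2 of the 3 injected mice therefore stood above the controls. The difference, 0.87 ± 0.31, had the highest estimate of all 37 members and did not pass (adjusted p = 0.0991). Without TFEB-injected replicate 3 it was 1.27 (adjusted p = 0.00104). With any other single array left out it did not pass (adjusted p up to 0.256). Cd163, the scavenger receptor for hemoglobin-haptoglobin complexes, gave 5.95, 6.11 and 6.19 against 5.80, 5.997 and 6.16, and the groups overlapped (0.10 ± 0.10; adjusted p = 0.558).

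**Figure D2:**
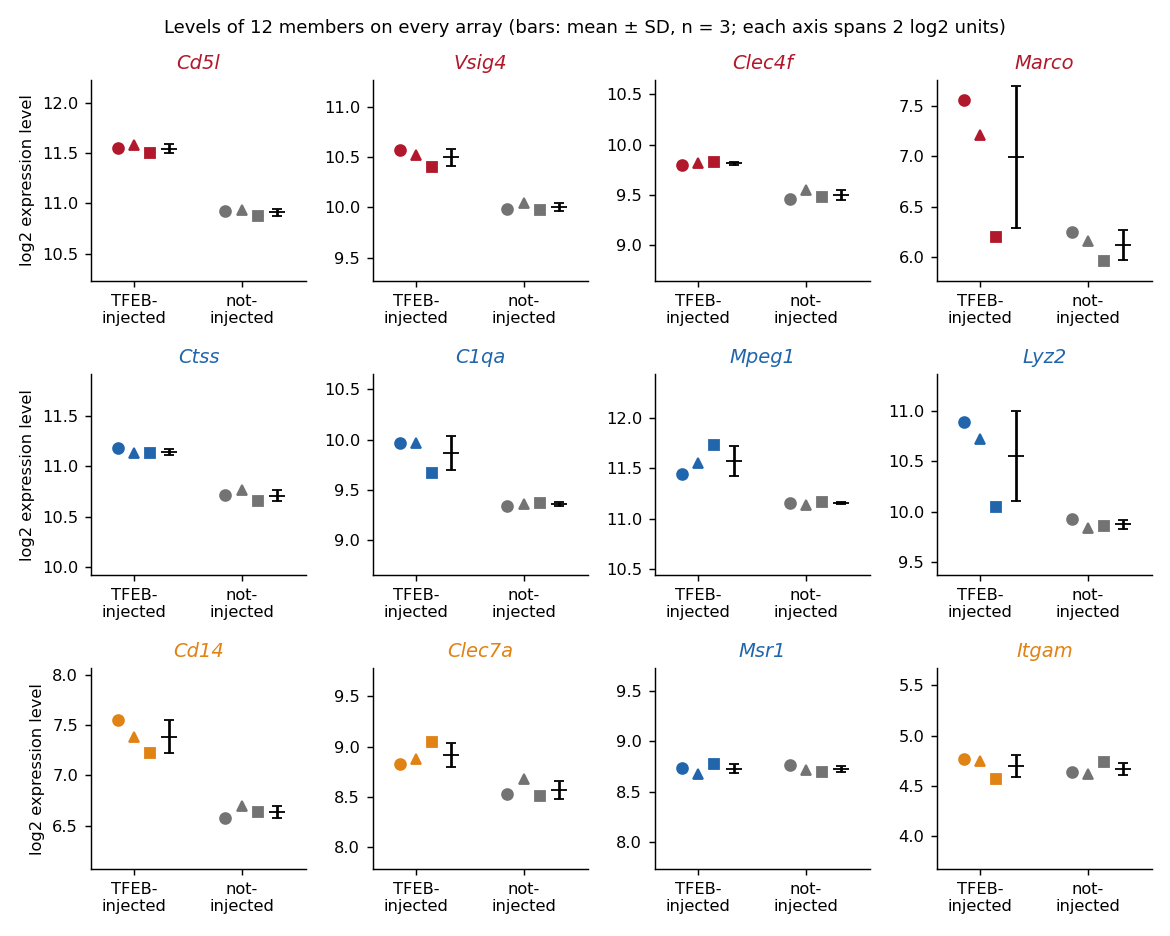
Log2 expression levels of 12 members on every array, TFEB-injected at left and not-injected at right, with mean ± SD beside them (n = 3); replicates 1, 2 and 3 are circles, triangles and squares, and each y axis spans 2 log2 units. Cd5l, Clec4f and Ctss have tight, separate groups, Marco and Lyz2 have injected replicate 3 near the not-injected arrays, and in Msr1 and Itgam the groups overlap.

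The genes for the chains of C1q, the complement component that macrophages make and that tags immune complexes and dying cells, rose together. C1qa was at 9.96, 9.96 and 9.67 in the injected livers, against 9.34, 9.36 and 9.37 in the not-injected livers (0.51 ± 0.08; adjusted p = 0.00611). C1qb was at 10.01, 9.93 and 9.65, against 9.49, 9.46 and 9.40 (0.42 ± 0.09; adjusted p = 0.0203), and C1qc at 8.76, 8.70 and 8.47, against 8.31, 8.25 and 8.17 (0.40 ± 0.08; adjusted p = 0.0143). In all 3 genes TFEB-injected replicate 3 was the lowest injected array while the groups stayed apart. The C1qb call was lost without TFEB-injected replicate 2 or not-injected replicate 1, 2 or 3 (adjusted p up to 0.0814), and that of C1qc without TFEB-injected replicate 2 or not-injected replicate 2 or 3 (up to 0.0624). The other 2 C1qb probe sets rose too, by 0.40 ± 0.05 and 0.35 ± 0.08.

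Csf1r, the receptor on which macrophages depend for survival, was at 11.38, 11.25 and 11.08 in the injected livers, against 10.79, 10.73 and 10.72 in the not-injected livers. The groups did not overlap, and the rise was 1.40-fold (0.49 ± 0.08; adjusted p = 0.00558). Spi1, the gene of PU.1, which activates Csf1r, gave 5.80, 5.71 and 5.74 against 5.85, 5.83 and 5.76, the 1 negative difference among the members (-0.06 ± 0.05; adjusted p = 0.441). The ligands of CSF1R did not pass either. Csf1 differed by -0.08 ± 0.05 (adjusted p = 0.293) and Il34 by -0.11 ± 0.08 (adjusted p = 0.412). Of 12 measured macrophage growth factor and transcription factor genes, which include these ligands, 2 rose and 1 fell, with a median of -0.09. Among all genes tested, 9.99% rose and 7.92% fell. Id3, which Kupffer cells need for their development but other liver cells also express, rose by 0.40 ± 0.06, Csf2rb, a cytokine receptor chain, by 0.26 ± 0.07, and Irf5, a factor of inflammatory macrophages, fell by 0.48 ± 0.08. The number that rose was 1 without TFEB-injected replicate 2 or any 1 not-injected array.

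Members that act in the phagosome or lysosome included Ctss, Cd68, Slc11a1 and Cybb, which rose. Ctss, for cathepsin S, a protease that trims the invariant chain of MHC class II, was at 11.18, 11.13 and 11.13 in the injected livers, against 10.71, 10.76 and 10.66 in the not-injected livers (0.44 ± 0.05; adjusted p = 0.00118). Cd68, for the lysosomal glycoprotein macrosialin, was at 6.92, 7.07 and 6.98, against 6.57, 6.50 and 6.58 (0.44 ± 0.05; adjusted p = 0.00178). Neither gene had an injected array near the not-injected ones. Slc11a1, for the metal ion transporter NRAMP1 of the phagosome, was at 7.53, 7.56 and 7.56, against 7.27, 7.28 and 7.27. Its rise of 0.28 ± 0.04 (adjusted p = 0.00409) was small and even, with an SD of 0.02 in the injected and 0.01 in the not-injected group. Cybb, for the catalytic NADPH oxidase subunit, was at 7.01, 6.95 and 6.81, against 6.51, 6.39 and 6.38 (0.49 ± 0.07; adjusted p = 0.00275).

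Mpeg1, for the pore-forming protein perforin-2, ran in a different order across the mice. It was at 11.44, 11.55 and 11.74 in TFEB-injected replicates 1, 2 and 3, against 11.16, 11.14 and 11.17 in the not-injected livers (0.42 ± 0.08; adjusted p = 0.00889). Replicate 3, the lowest injected array for C1q, was the highest for Mpeg1.

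Lysozyme, which cleaves bacterial cell walls, is made by macrophages mainly from Lyz2. The Lyz2 probe set gave 10.90, 10.72 and 10.04 in the injected livers, against 9.92, 9.84 and 9.86 in the not-injected livers. The groups did not overlap, yet the difference of 0.68 ± 0.20 missed the threshold (adjusted p = 0.0531). It was 0.94 without TFEB-injected replicate 3 (adjusted p = 3.30e-04) but did not pass with any other array left out (up to 0.165). The lead Lyz1 probe set, whose name ends in _x_at and which may detect related transcripts, ran the same way, at 12.06, 11.79 and 11.32 against 10.93, 11.02 and 10.90 (0.77 ± 0.16; adjusted p = 0.0173). A further _x_at probe set for Lyz1 differed by 0.78 ± 0.15, but the one that is not of this kind gave 4.63, 4.79 and 4.54 against 4.84, 4.45 and 4.43, with overlapping groups (0.08 ± 0.12; adjusted p = 0.709 over all probe sets). The value named Lyz1 is therefore uncertain as to gene, and its call was also lost without TFEB-injected replicate 2 or not-injected replicate 1, 2 or 3 (adjusted p up to 0.0684).

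Immune receptors that signal through ITAM adaptors split. Tyrobp, for the adaptor DAP12, was at 9.20, 9.19 and 9.08 in the injected livers, against 8.78, 8.84 and 8.77 in the not-injected livers (0.36 ± 0.05; adjusted p = 0.00383). Fcer1g, for the adaptor of the Fc receptors, was at 8.47, 8.38 and 8.13, against 8.23, 8.10 and 8.07, and its groups overlapped (0.19 ± 0.09; adjusted p = 0.206). Of the receptors that use these adaptors, Fcgr1, the high-affinity IgG receptor, rose to 6.64, 6.46 and 6.38, against 6.07, 6.13 and 6.06 (0.41 ± 0.07; adjusted p = 0.00852). Fcgr3, the low-affinity one, differed by 0.20 ± 0.08 (adjusted p = 0.119), with not-injected arrays from 7.60 to 7.86 just under injected arrays from 7.87 to 7.997. Fcer1g passed without TFEB-injected replicate 3 (adjusted p = 0.0252) and Fcgr3 without not-injected replicate 3 (adjusted p = 0.0494). With any other single array left out neither passed (adjusted p up to 0.424 for Fcer1g and 0.314 for Fcgr3). Whether the responses of these receptors and adaptors differ from each other was not tested. Among further genes linked to Fc receptor and ITAM signalling, 1 of 11 measured rose and 0 fell, with a median of 0.07. That count was near the 9.99% of all genes that rose. The gene that rose, Sirpa, for an inhibitory receptor that reads the "do not eat me" signal CD47, did so by 0.31 ± 0.06. Without TFEB-injected replicate 2 the count was 0, and without replicate 3 it was 3.

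Receptors for scavenging and dead-cell uptake did not move as a block. Msr1, a class A scavenger receptor for modified lipoproteins and a relative of Marco, was at 8.73, 8.68 and 8.77 in the injected livers, against 8.76, 8.72 and 8.69 in the not-injected livers. Its difference was 0.00 ± 0.05 (adjusted p = 0.972), and its other 3 probe sets gave 0.09, 0.07 and -0.03. Axl, a TAM receptor that recognises dying cells through the bridging protein Gas6, gave 6.69, 6.79 and 6.69 against 6.63, 6.46 and 6.40. The groups were separate, but the difference of 0.22 ± 0.07 missed the threshold (adjusted p = 0.0678). It passed without not-injected replicate 1 (adjusted p = 0.0350) but not with any other array left out (up to 0.213). Among 10 further uptake genes, 3 rose and 1 fell, with a median of 0.11, where 9.99% of all genes rose and 7.92% fell. Itgb2, the beta chain shared by leukocyte integrins, was at 7.27, 7.28 and 7.27, against 6.49, 6.71 and 6.65 (0.66 ± 0.06). Mfge8, for a bridging protein between dying cells and phagocytes, rose by 0.81 ± 0.11, and Gas6 itself, named after its value was seen, by 1.13 ± 0.15. Lrp1, a lipoprotein and protease receptor prominent in hepatocytes, fell by 0.24 ± 0.05; it was not called without TFEB-injected replicate 2 or not-injected replicate 2 or 3, and 2 of the genes fell without TFEB-injected replicate 3.

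Of the remaining 3 pan-macrophage members, Aif1 and Ly86 rose. Aif1, for the actin-binding protein IBA1, was at 7.58, 7.71 and 7.42 in the injected livers, against 6.98, 6.87 and 7.09 in the not-injected livers (0.59 ± 0.09; adjusted p = 0.00371). Ly86, for MD-1, a partner of the Toll-like receptor relative RP105, was at 8.74, 8.64 and 8.64, against 8.38, 8.40 and 8.38 (0.29 ± 0.05; adjusted p = 0.0067). Both had every injected array above every not-injected one. Adgre1, for the classical macrophage antigen F4/80, was at 9.12, 8.96 and 8.57, against 8.50, 8.41 and 8.39, a difference of 0.45 ± 0.13 that missed the threshold (adjusted p = 0.0554). Its injected replicate 3 lay just above the not-injected arrays, and without it the difference was 0.60 (adjusted p = 0.00177). With any other single array left out, Adgre1 did not pass (adjusted p up to 0.166).

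Of the genes shared by all leukocytes, 4 of 5 rose. Ptprc, for the surface phosphatase CD45, was at 8.73, 8.55 and 8.52 in the injected livers, against 8.10, 8.09 and 8.23 in the not-injected livers (0.46 ± 0.07; adjusted p = 0.00473). The tetraspanin gene Cd53 was at 8.72, 8.68 and 8.50, against 8.22, 8.22 and 8.20 (0.42 ± 0.06; adjusted p = 0.00464). Their group ranges were separate, as were those of Laptm5, a lysosomal membrane protein of blood cells (0.46 ± 0.06; adjusted p = 0.00277), and of Coro1a, for an actin regulator (0.28 ± 0.06; adjusted p = 0.0152). The Coro1a call was lost without TFEB-injected replicate 2 or not-injected replicate 2 (adjusted p up to 0.0630). It was also lost when the gene's probe sets were averaged (0.18; adjusted p = 0.0848). Lst1 differed by 0.11 ± 0.06 (adjusted p = 0.292).

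Markers of the other leukocytes that also express such genes were checked for the same samples. Their counts stand beside 9.99% of all genes that rose and 7.92% that fell. Of 11 T and NK cell genes, Gzma rose and 0 fell, and their linear levels summed to 744 to 802 on the injected arrays, against 748 to 790 on the not-injected arrays. Of 7 B cell genes, 0 rose and Ighm fell, with a list median of -0.04. Ighm, for the heavy chain of IgM, was at 9.43, 9.81 and 10.33, against 10.80, 10.98 and 10.77; it was the 1 gene of this list above the median level of all genes and made up most of the list's sums of 958 to 1584, against 2006 to 2298. Of 8 neutrophil genes, S100a8 rose and 0 fell, with sums of 452 to 482, against 464 to 490. Of 6 dendritic cell genes 0 passed in limma, and 0 had an unadjusted p under 0.05; the sums were 391 to 416, against 401 to 426. Without TFEB-injected replicate 2 or not-injected replicate 2, the calls of Gzma, Ighm and S100a8 were all lost. That of S100a8 was lost without any 1 of the arrays and that of Gzma also without not-injected replicate 3, while 1 B cell gene rose without TFEB-injected replicate 1. The T and NK, neutrophil and dendritic cell lists had 0 genes above the median level of all genes. No defining marker in these lists was listed at 0, since RMA values have no zero. Their part in the levels of the pan-leukocyte genes was not tested.

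Among the monocyte-linked genes, 2 of 5 rose. Cd14, the lipopolysaccharide co-receptor, was at 7.55, 7.38 and 7.22 in the injected livers, against 6.58, 6.70 and 6.64 in the not-injected livers. At 1.68-fold (0.75 ± 0.09; adjusted p = 0.00136) it was among the larger rises of all members. Clec7a, for the beta-glucan receptor dectin-1, was at 8.82, 8.88 and 9.05, against 8.53, 8.68 and 8.51 (0.35 ± 0.07; adjusted p = 0.0184). Replicate 3 was its highest injected array, as for Mpeg1. The Clec7a call was lost without TFEB-injected replicate 2 or not-injected replicate 1 or 3 (adjusted p up to 0.0736), which left Cd14 as the 1 called gene of this class.

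Itgam, for CD11b, gave 4.77, 4.75 and 4.57 against 4.64, 4.62 and 4.73, and Itgax, for CD11c, 6.15, 6.01 and 6.26 against 6.20, 6.07 and 6.11. Trem2, a lipid-sensing receptor that signals through DAP12, gave 6.64, 6.60 and 6.81 against 6.73, 6.77 and 6.52. In all 3 genes the injected and not-injected arrays overlapped in range, with differences of 0.03 ± 0.07, 0.01 ± 0.07 and 0.01 ± 0.08 (adjusted p = 0.799, 0.934 and 0.952). Those of Itgax and Trem2 turned negative after median centring of the arrays. Of 9 further monocyte genes, 0 rose and 0 fell in limma, where 9.99% of all genes rose and 7.92% fell. Their median was 0.08, and 1 had an unadjusted p under 0.05. This was Ccr2, the chemokine receptor of inflammatory monocytes, at 5.37, 5.33 and 5.30 against 5.11, 5.29 and 4.94 (0.22 ± 0.09; adjusted p = 0.131). Without not-injected replicate 2, 1 of them passed. Most of these genes were dim. Of the 9, 1 stood above the median level of all genes, Plac8, which differed by 0.06 ± 0.05 (adjusted p = 0.432). Of the 5 monocyte-linked members 1 did, Clec7a, which rose, and of the 6 resident members 4 did. RMA compresses changes at low levels, and whether this affected these genes was not tested. Whether monocyte-linked and resident genes differ in response was not tested.

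**Figure D3:**
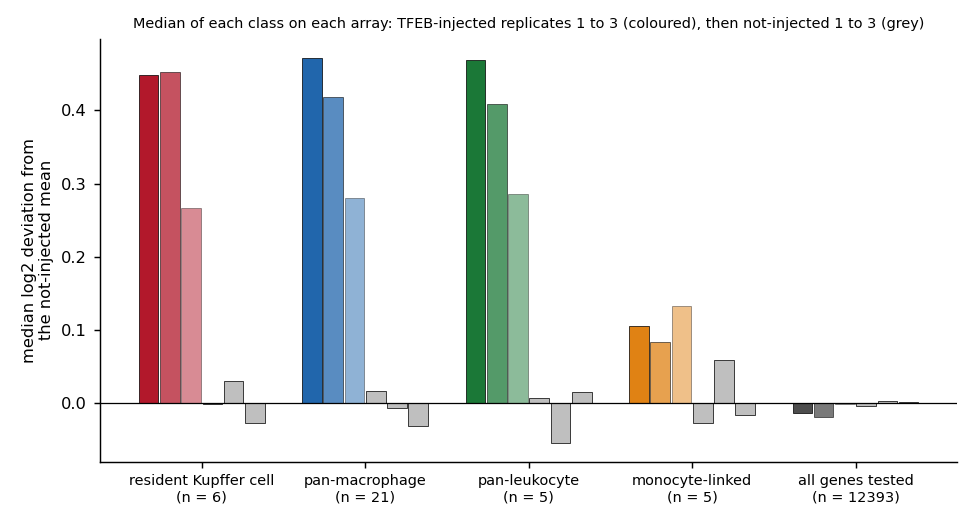
Bars give the median over the genes of each class of log2 level minus the not-injected mean, for TFEB-injected replicates 1 to 3 in colour and not-injected replicates 1 to 3 in grey. Resident, pan-macrophage and pan-leukocyte medians lie between 0.27 and 0.47 on the injected arrays and the monocyte-linked ones between 0.08 and 0.13, while all genes tested lie near 0.

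Across the 3 injected mice the members had another order than most other genes that rose, a difference given here as counts without a test. The median shift of the resident Kupffer cell genes was 0.45, 0.45 and 0.27 in TFEB-injected replicates 1, 2 and 3, that of the pan-macrophage genes 0.47, 0.42 and 0.28, and that of the pan-leukocyte genes 0.47, 0.41 and 0.29. A lowest replicate 3 was not confined to the members. The median shift of the liver endothelial markers was 0.014, 0.008 and -0.116 on the same arrays, whereas that of the lipid-associated macrophage genes was 0.84, 0.89 and 0.95. Of the 24 members that rose, 18 (75%) had their lowest injected level in replicate 3, against 22.8% of the 1214 other genes that rose, of which 62.5% were lowest in replicate 1. For the C1q genes, Lyz1 and Folr2, the shift in replicate 3 was between 38.5% and 55.2% of the mean shift in replicates 1 and 2. For Cd5l, Cd68 and Ctss it was 90.1%, 97.1% and 94.4%, for Clec4f and Slc11a1 107% and 106%, and for Mpeg1 and Clec7a 170% each. The count of 18 was 19 after median centring and 17 after cyclic loess, both chosen as checks after the data were seen. The SD was larger in the injected group for 28 of the 37 members (75.7%) and for 59.3% of all genes.

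**Figure D4:**
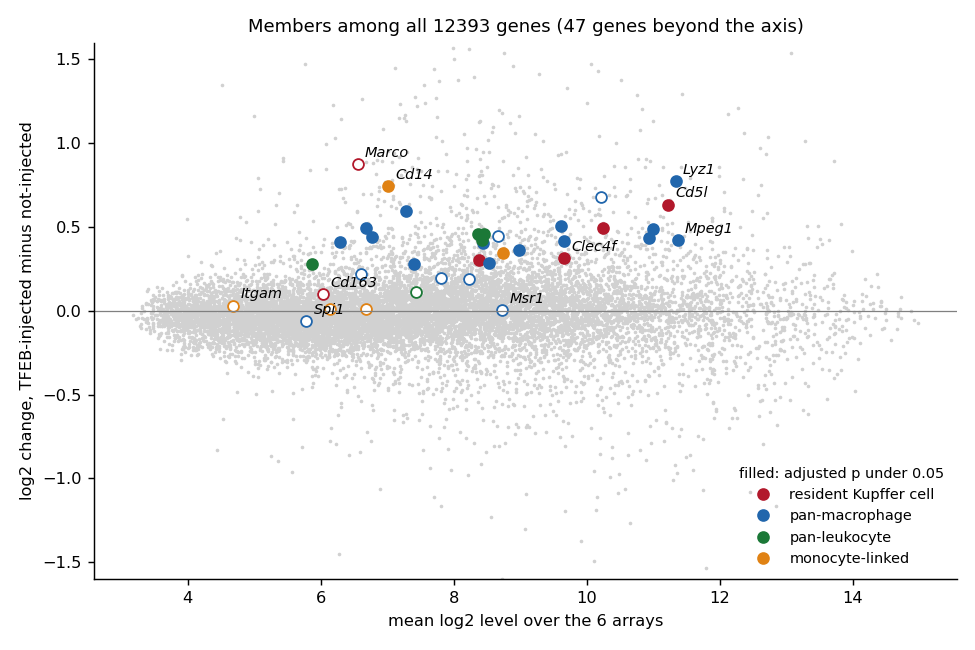
Log2 change, TFEB-injected minus not-injected, against mean log2 level over the 6 arrays; grey points are all genes tested, coloured points the members by class, filled where the adjusted p was under 0.05. Members that rose are found from dim to bright probe sets, with changes between 0.28 and 0.77, and unfilled points near 0 include Msr1, Spi1 and Itgam.

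Where a gene had several probe sets, they did not always go together. The 37 genes had 52 probe sets; 29 of these rose and 0 fell when every probe set was tested, whereas 8.34% of all 20380 rose. Csf1r had probe sets at 0.49 ± 0.08, 0.27 ± 0.06 and 0.04 ± 0.08, of which the first 2 rose. Laptm5 had 1 that rose, its lead at 0.46, and others at 0.11 ± 0.08 and -0.07 ± 0.06. For Coro1a, probe sets at 0.28 and 0.32 rose, and a dim one gave -0.05 ± 0.11. The additional probe sets of Axl and Trem2 gave 0.08 ± 0.06 and 0.11 ± 0.08. Of the 8 genes with several, 3 (Laptm5, Msr1 and Coro1a) had a probe set of opposite sign to the lead, and 0 of these passed.

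**Figure D5:**
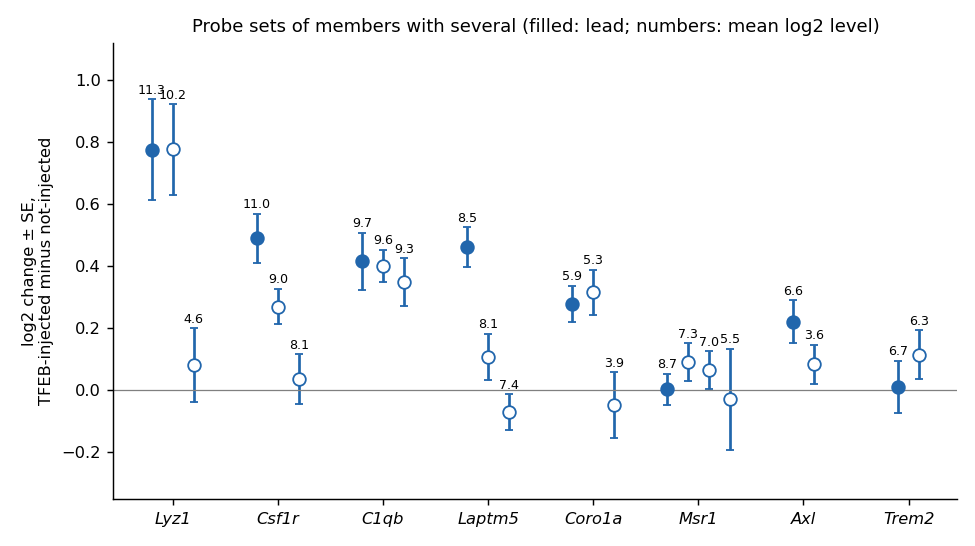
Log2 change ± SE of each probe set of the 8 members that have several, with the lead probe set filled and the mean log2 level printed above each point. The Lyz1 probe sets divide into a pair near 0.78 and a dim one at 0.08, and Csf1r and Laptm5 range from their lead down to near 0.

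Genes of lipid-associated macrophages, a state seen in fatty and scarred liver, were higher although Trem2, a usual marker of it, was not called. All 5 measured rose, with a median of 0.90, where 9.99% of all genes rose. Fabp5, a fatty acid binding protein, was at 14.12, 14.17 and 14.23 in the injected livers, against 13.31, 13.28 and 13.24 in the not-injected livers (0.90 ± 0.05; adjusted p = 7.96e-05), and the tetraspanin gene Cd9 at 9.62, 9.83 and 10.11, against 8.83, 8.81 and 8.87 (1.02 ± 0.11; adjusted p = 0.00116). The rest, named after their values were seen, were Lpl (0.72 ± 0.09), Gpnmb (1.98 ± 0.30) and Lgals3 (0.28 ± 0.05). By mean level Fabp5 stood at percentile 99.4 of all genes, near the hepatocyte gene Apob at 99.7. The 5 genes are not restricted to macrophages, and which cells held the transcripts was not tested. The highest injected array was replicate 3 in Gpnmb, Cd9 and Fabp5, replicate 1 in Lpl and replicate 2 in Lgals3.

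Sinusoidal endothelial cells share scavenger functions with Kupffer cells. The counts that follow stand beside 9.99% of all genes that rose and 7.92% that fell. Of 11 endothelial markers, Stab2 rose by 1.42 ± 0.05 and Lyve1 by 0.89 ± 0.07, 0 fell and the median was -0.03; the summed linear level was 4229 to 4929 on the injected arrays, against 3694 to 3858 on the not-injected arrays. Of 10 stellate cell and fibroblast genes 2 rose (Col3a1 and Col1a2) and 2 fell (Lrat and Reln), counts that changed with single arrays left out. Of 6 hepatocyte genes 0 passed in limma (1 at an unadjusted p under 0.05, Cps1 at -0.14 ± 0.05), with a median of -0.04, and they summed to 130152 to 135138, against 136315 to 136530. The part of these cell types in the members' changes was not tested.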

How the data were processed

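Liver RNA of 6 mice was measured on 1 array each. The deposited values are log2 expression levels per probe set, which the authors made with RMA in the affy package per the submitters' processing notes; no version is stated. Quantile normalisation hides overall shifts in RNA content, and RMA compresses changes at low levels. Array medians lay between 6.92 and 6.93.

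The table held 22690 probe sets. In the platform annotation 20393 had 1 gene symbol, 691 several and 1606 none. Control probe sets (64) were left out, and 20380 probe sets for 12393 genes were tested, each gene by its probe set with the highest mean. Groups and replicate numbers came from the sample titles. limma 3.58.1 (R 4.3.3; lmFit and eBayes) compared TFEB-injected with not-injected arrays without covariates, taking genes as called at a Benjamini-Hochberg adjusted p, over the whole table, under 0.05. Changes are injected minus not-injected, ± SE. The labels call the arrays biological replicates and give no batch. Their small number limits the precision. The fit was tested on simulated data. "Rose" and "fell" are used of genes that passed.

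The members, their classes and the other gene lists were chosen with earlier results of these data known, so counts over them are read against the share of all genes called and carry no list test. All 38 members are accounted for; of other lists up to 2 called genes per direction with the smallest p were named, others being marked. Promoters came from RefSeq (GRCm38.p6). The planned protein comparisons were not made, as no protein table was used here. Alternatives were other probe set choices, scalings, filters, priors, weights, thresholds, the replicate number as a block and leaving out each array. Python 3.11.15 with matplotlib 3.10.9 made the figures.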

Additional observations from a re-analysis of the deposited data

How the results depend on the processing

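The count of 24 members that rose was 15 with the unmoderated test and between 18 and 29 under the other alternatives run; 0 members fell under any of them. With the replicate block it was 27. Without genes below the median level it was 20 of the 24 members left, and 20.7% of the genes then tested rose. The block shares only a number: deviations of same-numbered arrays correlated at 0.01, -0.13 and -0.11, and for 0 of the 3 injected arrays was the best match its own number. The pan-leukocyte median of 0.42 was 0.182 when probe sets were averaged per gene, where the flat Laptm5 and Coro1a probe sets enter. The monocyte-linked median of 0.03 rests on 5 genes. It was 0.0622 with averaged probe sets, 2.26e-04 after median centring, 0.0647 after cyclic loess, 0.0795 with array weights, 0.345 without genes below the median level, which leaves Clec7a alone, and from 0.0312 to 0.0942 with an array left out. Differences near 0 that changed sign were those of Itgax (-0.0189 after median centring, -0.0845 with array weights, from -0.0466 to 0.0783 with an array left out), Msr1 (-0.0275 after centring, -0.0163 after cyclic loess, -0.0355 with weights, from -0.0191 to 0.0282), Trem2 (-0.0208 after centring, -0.0635 with weights, from -0.0674 to 0.0595) and Itgam (from -0.00558 to 0.0942). None of these passed the threshold. The Lyz1 change was 0.08 without _x_at and _s_at probe sets. The cause of the other shifts was not tested. For dim probe sets RMA gives compressed changes.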
